A study of Mus musculus with 2 samples.

Results

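Distal peaks in first introns were the 5697 stretches of accessible DNA that both DNase-seq libraries of mouse gastrocnemius found inside a first intron, away from every annotated transcript start. A peak of replicate 1 was a member when it overlapped a peak of replicate 2 by at least 1 bp and lay on chromosomes 1 to 19. Its centre also had to lie more than 1 kb from every transcript start of the GENCODE M21 annotation, in no exon, and in the first intron of the longest protein-coding transcript of a gene. Replicate 1 had 94295 peaks, replicate 2 had 123291, and 75098 peaks of replicate 1 overlapped one of replicate 2. Of these, 40992 were distal and outside exons: 5697 in first introns, 12039 in later introns, 20109 outside genes, and the remainder inside genes but in no intron of a chosen transcript.

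In DNase-seq, DNase I cuts DNA that nucleosomes leave exposed, and the cut sites are sequenced. The gastrocnemius, the main calf muscle, came from male B6CASTF1/J mice, hybrids of C57BL/6J and CAST/EiJ, at 4 days of age, and each label speaks of 3 males. The labels number the libraries as biological replicates 1 and 2 and give each its own tissue sample under a shared donor entry. There is 1 group, and both libraries come from whole tissue, which mixes muscle fibres with their satellite, connective, vascular and nerve cells. With no second condition, the values below are levels with the spread between libraries, and peaks are not replicates of each other. Fewer cells of a type and less accessible DNA per cell cannot be told apart in such tissue.

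The first intron is often the longest intron of a gene and follows directly on the promoter. Transcriptional enhancers are frequent there, and in muscle many enhancers are bound by the MyoD family of transcription factors through short E-box sequences. Other accessible sites in introns hold CTCF, which shapes chromatin loops, or additional promoters.

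The tissue label was checked against promoters, taken as 500 bp on either side of the start of the chosen transcript. A peak of both libraries lay there in 61.7% of all 20722 protein-coding genes. The share was 85.5% of 55 muscle regulators, 50% of 64 sarcomere and Z-disc genes, 23.5% of 34 macrophage and lymphocyte genes and 7.14% of 28 hepatocyte genes. In lists of other cell types it was 92% of pericyte, 85.5% of fibroblast, 65% of Schwann cell and 57.8% of neuron genes. Pericyte and fibroblast genes thus lay well above all genes, Schwann cell genes close to them and neuron genes below. These shares alone do not set muscle apart from those cell types. Promoters of Myod1, the master regulator of muscle fate, of Ckm, muscle creatine kinase, and of Des, the intermediate filament desmin, were open in both. Those of the myosin heavy chains Myh1, Myh3 and Myh4 had a peak in neither, while Myh8, the perinatal myosin, had one in both.

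The sequences of 8 members show what lay under such peaks. Each is the reference sequence of the GRCm38.p6 assembly (mm10) on the plus strand over the peak of replicate 1. The reference is C57BL/6J, so the CAST/EiJ allele of the hybrid animals may differ from it. Capitals mark matches to 1 named motif whose centre lay in a footprint, a short stretch protected from cutting, of at least 1 library. The sites in Hspg2, Rora and Synpo2 carry E-box (CAGCTG) or TEAD (CATTCC) matches. The member of Hspg2, which encodes the basement membrane proteoglycan perlecan, lay at chr4:137476501-137476720, and a weaker member of the same intron, with 3 E-boxes, at chr4:137487681-137487920. The member of Rora, a nuclear receptor of the circadian clock, lay at chr9:68888761-68888960, and that of Synpo2, the Z-disc protein myopodin, at chr3:123138381-123138560. Per1, a clock repressor, and Mxi1, an antagonist of MYC, carry the cAMP response element (CRE, TGACGT, here on both strands) at chr11:69097021-69097240 and chr19:53314281-53314420. Xirp1, an actin-binding protein of muscle attachment sites, and Igf1r, the receptor of insulin-like growth factor 1, carry a CTCF match at chr9:120020381-120020540 and chr7:67961981-67962160. Hspg2 at the stronger site and Synpo2 follow from the naming rule, and the others were chosen after their values were seen.
Hspg2, stronger: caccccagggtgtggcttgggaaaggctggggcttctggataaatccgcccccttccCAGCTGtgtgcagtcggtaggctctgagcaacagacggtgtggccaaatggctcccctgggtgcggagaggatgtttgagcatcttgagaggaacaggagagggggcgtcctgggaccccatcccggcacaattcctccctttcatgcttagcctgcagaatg
Hspg2, weaker: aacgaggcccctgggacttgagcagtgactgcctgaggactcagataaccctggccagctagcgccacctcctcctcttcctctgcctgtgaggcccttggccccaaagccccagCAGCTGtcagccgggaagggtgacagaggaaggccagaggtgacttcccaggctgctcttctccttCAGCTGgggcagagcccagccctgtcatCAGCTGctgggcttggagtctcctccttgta
Rora: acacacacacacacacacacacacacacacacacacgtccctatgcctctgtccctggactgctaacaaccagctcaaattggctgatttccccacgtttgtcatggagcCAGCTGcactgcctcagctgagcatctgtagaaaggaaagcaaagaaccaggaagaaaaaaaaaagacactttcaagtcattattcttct
Synpo2: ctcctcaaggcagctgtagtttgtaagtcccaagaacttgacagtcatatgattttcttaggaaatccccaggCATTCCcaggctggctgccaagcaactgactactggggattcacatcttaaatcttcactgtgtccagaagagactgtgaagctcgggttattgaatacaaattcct
Per1: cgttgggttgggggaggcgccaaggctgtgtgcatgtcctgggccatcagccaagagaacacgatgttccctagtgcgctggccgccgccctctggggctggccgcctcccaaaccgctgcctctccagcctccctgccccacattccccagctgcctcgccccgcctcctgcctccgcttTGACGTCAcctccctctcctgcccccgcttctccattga
Mxi1: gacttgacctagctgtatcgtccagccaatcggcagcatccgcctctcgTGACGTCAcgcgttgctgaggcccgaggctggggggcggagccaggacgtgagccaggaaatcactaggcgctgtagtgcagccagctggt
Xirp1: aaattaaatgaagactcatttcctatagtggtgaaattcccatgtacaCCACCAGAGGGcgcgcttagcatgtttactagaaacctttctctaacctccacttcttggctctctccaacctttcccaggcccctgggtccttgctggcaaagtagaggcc
Igf1r: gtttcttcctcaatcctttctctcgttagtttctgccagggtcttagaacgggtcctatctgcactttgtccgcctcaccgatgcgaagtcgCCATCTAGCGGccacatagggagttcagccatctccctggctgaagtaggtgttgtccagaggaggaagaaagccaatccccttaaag

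The stronger Hspg2 site had a cut density of 4.56 in replicate 1 and 3.00 in replicate 2. Cut density is the authors' value per peak, on a scale of its own in each library, so ranks are used below: the percentile of a peak, from 0 to 100, among all peaks of its library. This site ranked at 91.3 in replicate 1 and 93.2 in replicate 2, 7842 bp from the start of the gene. Its E-box lay in a footprint in both libraries. The weaker Hspg2 site ranked at 86.8 and 82.1, and of its 3 E-boxes 1 lay in a footprint of both libraries, 1 of replicate 1 only and 1 of replicate 2 only. The Rora site ranked at 84.0 and 90.3, lay 235075 bp from the start of Rora, and held a second E-box, in lower case above, that lay in no footprint. The Synpo2 site ranked at 82.6 and 89.2, 97676 bp from the start of Synpo2 and 3817 bp from that of Gm43744.

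Members spanned nearly the whole range of accessibility. The rank averaged over both libraries ran from 2.00 to 99.8, with a median of 57.7 and quartiles of 42.1 and 72.6. In later introns the median was 57.1, and outside genes it was 55.7. The median rank of members was 53.3 in replicate 1 and 63.2 in replicate 2, and replicate 2 also had more peaks without a partner. Ranks over 90 were held by 2.47% of members in replicate 1 and 4.56% in replicate 2, near the 2.97% and 5.33% of all shared distal peaks. Their median width was 177 bp in replicate 1 and 193 bp in replicate 2, against 160 and 180 bp in later introns and 168 and 180 bp outside genes. Across the 5697 members the ranks in both libraries had a Spearman correlation of 0.90, a description of peaks that were called in the same regions.

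**Figure D1:**
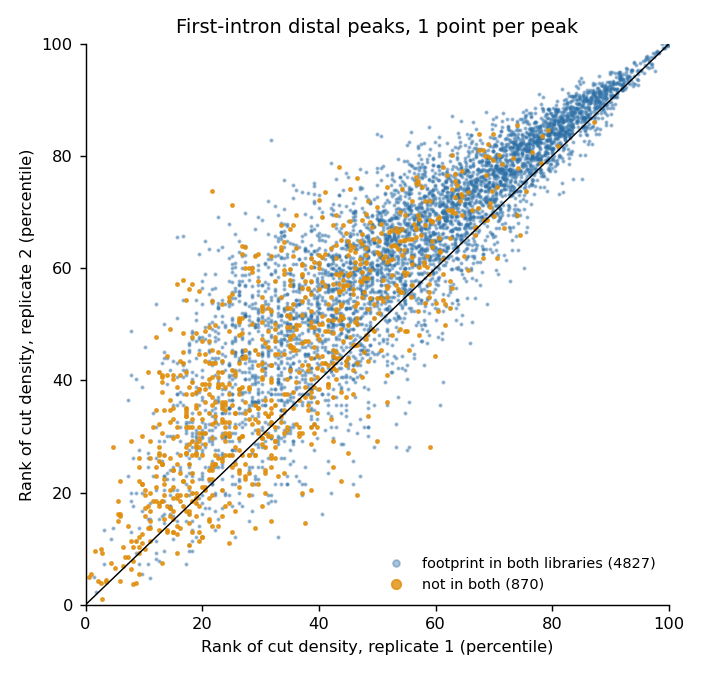
Rank of cut density (percentile among all peaks of the library) in replicate 1 on the x axis and replicate 2 on the y axis, with 1 point per member; blue points had a footprint in both libraries (4827 members) and orange points did not. Orange points are frequent at low ranks and rare at the top, and most points lie above the line of equal rank.

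Whether a first-intron peak of 1 library was found in the other depended on its rank. Of the 7088 peaks that replicate 1 placed in first introns by the same rule, 80.4% overlapped a peak of replicate 2, and of the 10341 of replicate 2, 55.1% overlapped one of replicate 1. The corresponding shares were 78.6% and 56.1% in later introns and 74.2% and 53.6% outside genes. Below rank 10, 14.3% of first-intron peaks of replicate 1 and 5.48% of those of replicate 2 were shared. At ranks from 70 to 80 the shares were 99.9% and 96.2%, and above 90 both were 100%. Shared peaks were thus the stronger ones of each library, and 781 members, 13.7%, had identical boundaries in both.

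Most members held a footprint. At least 1 footprint lay in 88.3% of members in replicate 1 and 93.9% in replicate 2, and 84.7% had one in both, against a background of 85.2% over all shared distal peaks. The mean number per member was 1.97 in replicate 1 and 2.75 in replicate 2. A footprint in both libraries was present in 64.5% of the weakest 25% of members and 98.5% of the strongest 25%. The shorter, stricter lists of both libraries held 52.3% of members, against 54.4% of all shared distal peaks. Both shares lay close to the background, so neither describes first introns in particular. Members whose cut density departed over 2-fold from the median ratio between the libraries were few: 7 (0.123%) were relatively higher in replicate 1 and 26 (0.456%) in replicate 2. In later introns the shares were 0.0997% and 0.656%, and outside genes 0.204% and 0.816%.

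First introns held more distal peaks per length than later introns, with the highest ratio close to a start. Eligible sequence was intron sequence outside exons and more than 1 kb from every start, 211 Mb in first introns and 591 Mb in later introns. Shared peaks numbered 27.0 per Mb in first introns, 20.4 in later introns and 15.9 outside genes. With all peaks of a library, the first introns held 33.6 per Mb in replicate 1 and 49.1 in replicate 2, and the later introns 25.9 and 36.3. Within a library, the first introns thus had 1.30 times (replicate 1) and 1.35 times (replicate 2) the density of later introns, 1.33 ± 0.037 (SD, n = 2). The libraries differed more from each other than first introns did from later introns, so classes were compared within a library, with no test of the ratio over 2 libraries.

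The ratio was highest from 1 to 2.5 kb from the nearest start. There, replicate 1 had 59.6 first-intron peaks per Mb, 34.9 later-intron peaks and 35.7 intergenic peaks. Replicate 2 had 90.2, 49.3 and 50.9. The ratio of first to later introns was 1.77 ± 0.086 (SD, n = 2) in this bin and 1.22 ± 0.062 from 2.5 to 5 kb. It was 1.21 ± 0.0052 from 5 to 10 kb and 1.14 ± 0.015 from 10 to 25 kb. Beyond 100 kb it was 1.01 in replicate 1 and 1.06 in replicate 2. In each of the 7 bins the first introns had the higher value in both libraries. From 25 to 50 kb the ratio was 1.06 in replicate 1 and 1.03 in replicate 2, and from 50 to 100 kb 1.02 and 1.11.

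**Figure D2:**
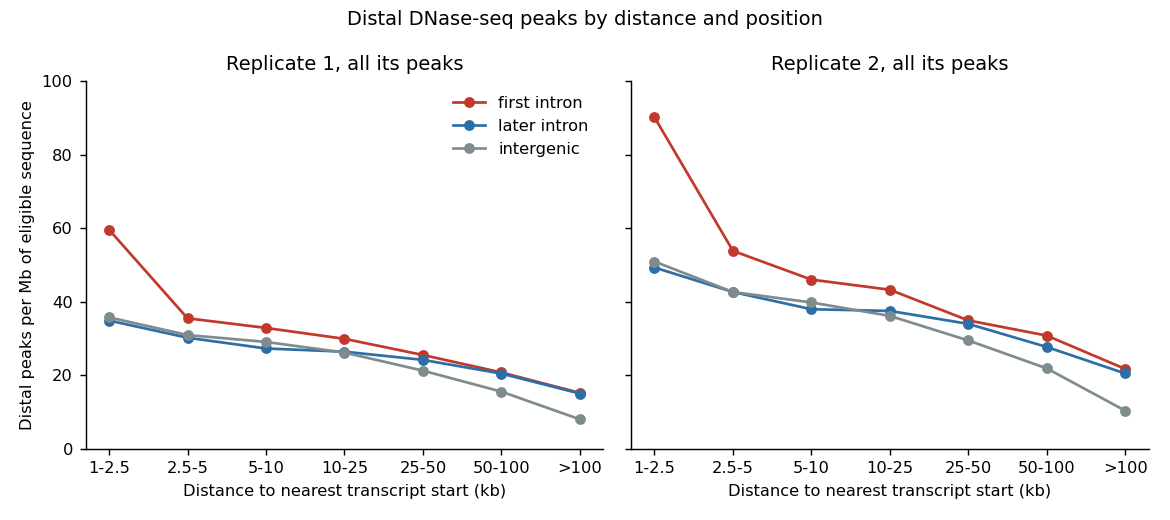
Distal peaks per Mb of eligible sequence (y axis) by distance to the nearest annotated transcript start (x axis, kb), for all peaks of replicate 1 on the left and replicate 2 on the right; red is first introns, blue later introns and grey intergenic sequence. The red line starts at 59.6 and 90.2 per Mb from 1 to 2.5 kb and comes close to the blue line beyond 25 kb.

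Measured from the start of the host transcript itself, the values fell over the same short range. First introns had 61.8 shared peaks per Mb from 1 to 2.5 kb downstream of their own start and 29.99 from 2.5 to 5 kb. From 5 to 50 kb the values lay between 25.2 and 26.7 per Mb, and beyond 100 kb the value was 17.4. Later introns had 34.7 per Mb from 1 to 2.5 kb, 24.6 from 50 to 100 kb and 17.8 beyond 100 kb. First introns had 22.6 from 50 to 100 kb. Beyond 50 kb from the host start first introns were thus lower than later introns, also in each library. As shares of the intron, with no correction for excluded sequence, 26.7% of members lay in the first 25% of its length and 25.05% in the last. Their median distance from the host start was 17.0 kb, with quartiles of 4.75 and 46.0 kb.

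Members close to a start differed in sequence from those farther away. From 1 to 2.5 kb, 18.5% of the 1421 members had CpG-rich sequence, taken as a CpG ratio over 0.6 and GC content over 50% in the 200 bp around the centre. This share was 5.65% of later-intron peaks and 13.7% of intergenic peaks at that distance. From 2.5 to 5 kb it was 5.83% of members, 3.37% of later-intron peaks and 10.6% of intergenic peaks. From 10 to 25 kb it was 2.54%, 2.74% and 5.88%, so beyond 2.5 kb intergenic peaks exceeded members in both of these bins. Over all members it was 7.42%, against 2.84% in later introns, 6.87% outside genes and a background of 5.72% of shared distal peaks. A footprint in both libraries was present in 81.1% of members from 1 to 2.5 kb and in 88.3% from 2.5 to 5 kb. CpG-rich sequence is usual at promoters, and its part in the excess near starts was not tested.

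The 1 kb limit cut through a continuum. The members nearest to it lay 1001 bp from a start. They were in Neu2, a sialidase, with a mean rank of 41.6, Enox1 with 92.4 and Creb3l1, a transcription factor of the secretory pathway, with 79.1. The peaks nearest to it on the other side, in first introns of Sox13, Tgif2 and Foxa1 at 996 to 999 bp, had mean ranks of 51.0, 61.7 and 69.7. The 404 members up to 250 bp beyond the limit had a median mean rank of 60.2, and the 596 otherwise alike peaks up to 250 bp short of it had 59.96.

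The E-box CAGCTG, the form preferred by MyoD and myogenin, was the most frequent of the 27 motifs searched. It stood in the 200 bp window of 1829 members, 32.1%, against 29.8% of all shared distal peaks. In 9989 windows centred 1 kb to either side of a member and touching no peak, the share was 9.54%. GC content was not alike: its median was 54.5% in member windows and 47% in the windows to the side. Over all first-intron peaks of a library the E-box share was 30.2% in replicate 1 and 28.0% in replicate 2, against 29.2% and 27.3% in later introns. The difference between first and later introns was smaller than that between libraries. The share was lower from 1 to 2.5 kb from a start, at 25.6%, than from 10 to 25 kb, at 35.1%, and it did not follow strength: 31.6% in the strongest 25% of members and 31.25% in the weakest.

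CTCF matches were scarcer in first introns than elsewhere. The motif stood in 438 members, 7.69%, against 14.0% of later-intron peaks, 13.3% of intergenic peaks and a background of 12.6% over all shared distal peaks. With all peaks of a library, the share was 5.84% ± 0.78 (SD, n = 2) in first introns and 10.7% ± 1.1 in later introns, and the higher first-intron value, 6.39%, lay below the lower later-intron value, 9.87%. The shortfall was present at most distances: 7.95% against 17.3% from 1 to 2.5 kb, 6.78% against 14.4% from 10 to 25 kb, and 7.23% against 10.96% from 25 to 50 kb. Beyond 100 kb the order turned, with 8.86% of only 79 members against 5.15%. CTCF members were strong, with a median mean rank of 73.6 against 56.5 for the others, and the motif stood in 16% of the strongest 25% of members and 3.30% of the weakest.

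The GC box and KLF motifs were more frequent in first introns than in later introns. The GC box CCGCCC, bound by SP factors, stood in 14.4% of members, 9.29% of later-intron peaks, 3.72% of the windows to the side, and 11.3% of all shared distal peaks. By library it stood in 13.7% and 11.5% of first-intron peaks and 9.31% and 7.77% of later-intron peaks. From 1 to 2.5 kb from a start the share was 20.3% of members and 16.1% of intergenic peaks. Farther away these 2 classes were close: 13.2% and 13.3% from 5 to 10 kb, and 11.7% and 11.5% from 10 to 25 kb. Beyond 100 kb the shares were 6.33% of only 79 members and 8.04% of intergenic peaks. KLF (CCACCC) stood in 24.6% of members, 20.4% of later-intron peaks and 21.2% of all shared distal peaks. ETS (CCGGAA) stood in 4.84% of members, 3.53% of later-intron peaks and 4.73% of intergenic peaks, and in replicate 1 the intergenic share, 4.91%, exceeded that of first introns, 4.81%. AP-1 (TGANTCA), the site of FOS and JUN, stood in 8.32%, close to the 8.08% of all shared distal peaks and above the 5.55% of windows to the side. MEF2, CArG and TEAD (CATTCC) are further muscle motifs. MEF2 stood in 1.86% of members, 1.52% of all shared distal peaks and 3.20% of windows to the side. CArG stood in 0.930%, 0.890% and 0.881%, and TEAD in 14.0%, 14.1% and 10.6%, so both were close to the other distal peaks. All motifs were sought on both strands, and a match is a description of letters, not of a bound factor.

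**Figure D3:**
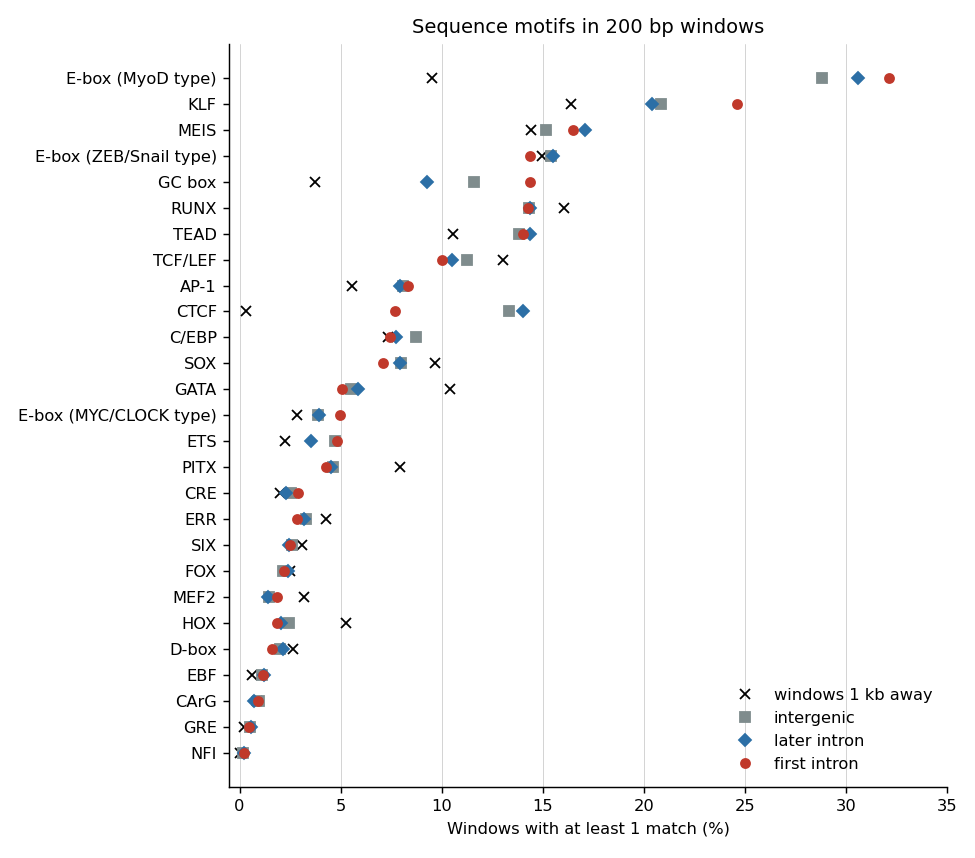
Percent of 200 bp windows with at least 1 match (x axis) for each of 27 motifs (y axis): red circles are members, blue diamonds later-intron peaks, grey squares intergenic peaks and crosses windows 1 kb from a member. The MyoD-type E-box leads at 32.1% against 9.54% in the windows to the side, and the red point for CTCF, 7.69%, lies left of both other peak classes.

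Motifs differed widely in how often they coincided with a footprint. Footprints of both libraries covered 8.71% of the bases of member windows, those of replicate 1 13.0% and those of replicate 2 17.5%. The centre of the motif lay in a footprint of both libraries for 85.0% of 441 CTCF matches, 28.8% of 1054 GC boxes and 21.1% of 905 CACCTG E-boxes. For CAGCTG the share was 11.3% of 2286 matches, beside 20.8% for footprints of replicate 1 and 23.8% for those of replicate 2. The CACCTG share is not directly comparable, since the CTCF pattern can contain CACCTG, as in the member of Ncmap. The CACCTG share apart from CTCF matches was not determined. For AP-1 the share in both libraries was 1.58% of 507 and for MEF2 1.79% of 112, below the 8.71% of bases covered in both. In later introns the corresponding shares were 86.6% for CTCF, 12.5% for CAGCTG and 2.96% for AP-1, where footprints of both libraries covered 10.2% of bases.

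The strongest member by mean rank, 99.8, lay in the first intron of the gene model Gm20388 on chromosome 8, which needs a caution. That intron is 4384 kb long, spans 71 other whole protein-coding genes and held 229 members, 4.02% of all. Without this transcript 46 of them lie in the first intron of another gene, 59 in a later intron and 124 in no intron of a chosen transcript. Gm20388 itself still counted as a gene there, so peaks between other genes were not told apart among the 124. Their median mean rank was 69.4, against 57.0 for the 5468 other members. First introns of 120 genes held another whole coding gene, and 321 members lay only in such introns. Leaving Gm20388 out gave 5514 members and a median distance from the host start of 15.98 kb.

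Other members among the 10 strongest, chosen by their ranks in both libraries, are described here. Mnt, which competes with MYC for MAX, had densities of 14.9 and 8.79 and ranks of 99.8 in both libraries, 1391 bp from its start. Per1 had densities of 14.4 and 9.12 and ranks of 99.7 and 99.8, 1914 bp from its start. Its CRE lay in a footprint of replicate 1 only. Nr1d1, the clock repressor REV-ERB alpha, had ranks of 99.1 and 99.4 at 1312 bp, and Mxi1 99.0 and 99.3 at 3833 bp. Another Mxi1 start lay 1285 bp from that peak. The CRE of Mxi1 lay in a footprint of both libraries. Mnt, Mxi1 and Per1 each also held a CRE match, a motif present in 2.90% of members and 2.54% of all shared distal peaks. Over all members a CRE match did not go with strength: the median mean rank was 56.9 with a match and 57.7 without.

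The remaining ones of the 10 lay at varied distances from the start of the chosen transcript, several of them nearer to another start. Il31ra, the receptor subunit for interleukin 31, ranked at 99.8 and 99.6 and lay 2421 bp from its start. Zfp516, a zinc finger regulator, ranked at 99.6 and 99.8, 2352 bp from its start and 1401 bp from another Zfp516 start. Aida, an axin interaction partner, ranked at 98.9 and 99.95, 2392 bp from its start and 1871 bp from another Aida start. Xkr6 ranked at 99.4 in both libraries, 75198 bp from its start and 22544 bp from another Xkr6 start. Acot11, an acyl-CoA thioesterase, ranked at 97.9 and 98.8, 26457 bp from its start and 3725 bp from that of Gm12745.

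Members fell into 2723 host genes, and 102 members had more than 1 host. Of the 13597 genes with eligible first-intron sequence, 20.0% had a member. A single member was the rule, in 1553 hosts, while 235 hosts had at least 5 and held 31.5% of all members. The nearest annotated start belonged to the host gene for 72.4% of members. For 70.3% of members another start of the same gene lay nearer than that of the chosen longest transcript.

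Genes with an open promoter had more members for their length, with a member counted once for each of its hosts. Where the start of the chosen transcript had a peak in both libraries (8918 genes), first introns held 28.8 members per Mb, and where it had none in either (4110 genes) 17.4, Gm20388 left out. The 568 genes with a peak in 1 library had 16.6, so the order was not graded. With all peaks of a library the values were 35.6 against 22.4 in replicate 1 and 52.2 against 32.9 in replicate 2. Genes open in both libraries exceeded those open in neither at every intron length. For 5 to 10 kb of eligible sequence there were 37.8 against 19.1 members per Mb, and for 50 to 100 kb 28.6 against 20.1. They also did so more than 5 kb from every start, at 23.5 against 15.0, with 11.5 for genes open in 1 library. Of hosts with an open promoter, 19.8% had a member that outranked the promoter peak.

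The hosts with the most members, after Gm20388, differed widely in intron length and in the strength of their members. Rora had 23 members over 537 kb of eligible sequence, with mean ranks from 18.3 to 91.1. Gse1, a partner of chromatin repressors, had 17 over 123 kb, all with a footprint in both libraries. These 17 also count as members of Gm20388, whose first intron spans that of Gse1. The Gse1 ranks were high throughout: 62.0 to 95.2 in replicate 1 and 70.6 to 95.2 in replicate 2. Arhgap26, Asic2 and Maml3 had 16 each. Maml3, a Notch coactivator, had both a cluster from 1.93 to 3.46 kb and a member at 16.5 kb that ranked at 95.99 and 97.2. Nfic, Ntm and Phactr2 had 15 each and Sorcs2 14. Asic2, an ion channel, had 16 over 975 kb, the lowest density of these genes, with a median mean rank of 42.0 against 84.4 in Gse1.

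Per length, short introns led among genes with at least 5 members, a limit that by itself gives short introns high values. Kdm6b, a histone demethylase, had 7 members in 3.89 kb of eligible sequence, with mean ranks from 67.1 to 98.2. Flnc, which encodes the Z-disc protein filamin C, had 5 in 4.19 kb, E2f2 5 in 5.04 kb, Bcl6 8 in 8.89 kb and Jup 6 in 8.98 kb. The Flnc members were strong in both libraries, from 79.4 to 93.4 in replicate 1 and from 81.7 to 92.9 in replicate 2. Such clusters are partly neighbouring peaks of 1 accessible stretch: 21.4% of all members lay within 1 kb of another, and the strongest Flnc member sat in a stretch of low false discovery rate of 2823 bp in replicate 1 and 1985 bp in replicate 2.

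**Figure D4:**
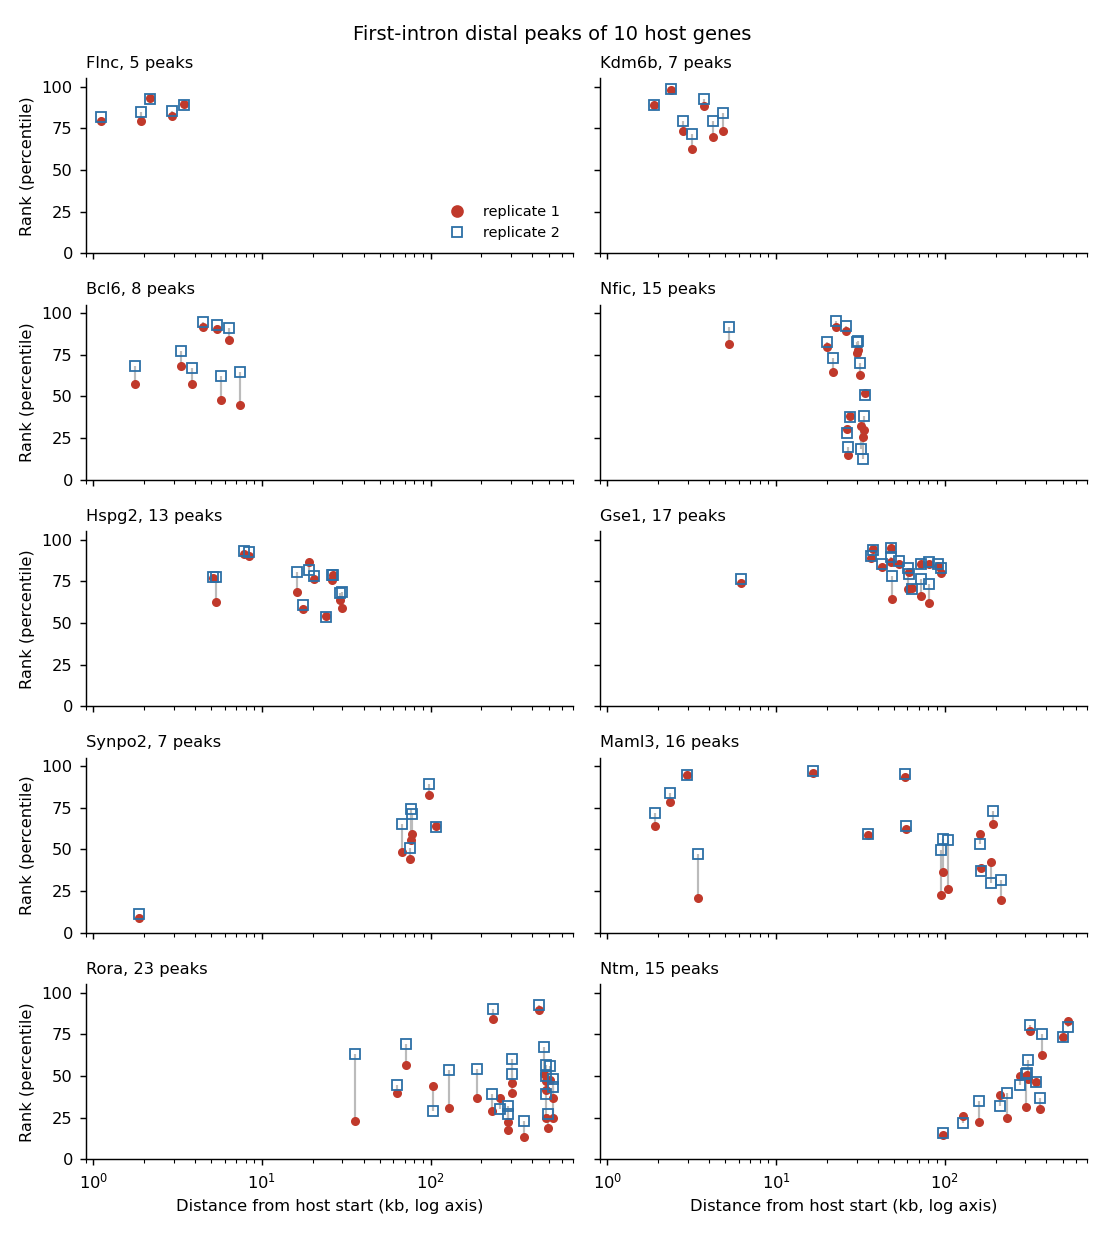
Members in the first introns of 10 host genes: distance from the host start on a log axis (kb, x axis) against rank of cut density (percentile, y axis), with a red circle for replicate 1 and an open blue square for replicate 2, joined by a grey line. All members of Flnc and Gse1 rank above 60 in both libraries, while those of Rora and Ntm spread over far longer distances with mostly low ranks.

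The muscle lists had more shared members per length than genes as a whole, though not all lists did so in each library by a clear margin. Beside 26.1 members per Mb over all genes but Gm20388, the 47 muscle regulators with eligible sequence had 52.5, the 42 sarcomere and Z-disc genes 80.4, and the 31 genes of calcium and excitation 44.9. The 36 genes of the dystrophin complex and adhesion had 37.0 and the 44 of muscle metabolism 36.9. With all peaks of a library, muscle regulators had 62.2 per Mb in replicate 1 and 81.7 in replicate 2, and sarcomere genes 105.7 and 133.2, against 32.5 and 47.8 over all genes. Calcium and excitation genes had 55.2 and 75.7, and the dystrophin and adhesion list 41.6 and 69.5. Muscle metabolism had 41.3 and 49.2, so in replicate 2 it was close to all genes. More than 5 kb from every start the shared values came closer together, at 33.8, 35.3, 32.4, 27.5 and 26.9 against 21.5. The sarcomere value there rests on 10 members. As shares of genes with a member, the lists stood at 46.8%, 33.3%, 45.2%, 52.8% and 31.8%. Genes differ in intron length, so shares of genes are not comparable to the 20.0% of all genes without it. Median eligible length was 9.11, 2.45, 9.67, 20.7 and 6.29 kb in the lists in the same order, and 4.41 kb in all genes. Values per Mb also vary with length: genes with an open promoter had 59.7 for 0 to 2 kb of eligible sequence and 45.3 for 2 to 5 kb.

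Among muscle regulators, 22 genes had 70 members, of which 57 had a footprint in both libraries. Nfic and Nfix, proteins of the nuclear factor I family, led: Nfic had 15 members and Nfix 6, with the strongest at mean ranks of 93.4 and 90.6. The start of the longest Nfic transcript had a peak at rank 22.8 in replicate 1 and none in replicate 2, and the strongest member lay 2076 bp from another Nfic start. Six5 had 1 member, at ranks 81.0 and 85.7. Tead1, Eya2 and Maml2, with 6 each, and Mef2d, with 5, followed, and Mymk, the fusion factor myomaker, had 1 member at a mean rank of 68.6 but no promoter peak. Sarcomere and Z-disc genes had 35 members in 14 genes, of which 7 lay in Synpo2, 6 in Svil, 5 in Flnc and 4 in Fhl3. The member of Xirp1 ranked at 85.9 and 87.5 although the start of its longest transcript had no peak in either library.

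Among genes of calcium and excitation, 34 of 35 members had a footprint in both libraries, 97.1%, beside the background of 85.2%. The share was 90.8% in the dystrophin and adhesion list and below the background in muscle regulators (81.4%), sarcomere genes (82.9%) and muscle metabolism (81.8%). Bin1, which shapes the transverse tubules, had 7 members, the strongest at ranks 86.0 and 85.0. Mcu, the mitochondrial calcium uniporter, had 6, and Srl, sarcalumenin, and Camk2b had 3 each, the strongest at 83.7 and 86.9 and at 85.6 and 84.5. In the dystrophin and adhesion list, Hspg2 had 13 members over 31.3 kb, 12 with a footprint in both libraries, and no peak in its later introns. Ncam1 had 8, Parva and Lamc1 6 each, and Itga7, the laminin receptor of muscle, 3, the strongest at ranks 89.1 and 92.7. In muscle metabolism, Ppargc1b, a coactivator of mitochondrial genes, had 9 members and 2 peaks in later introns. The strongest member of Irs1 ranked at 94.5 and 93.7, that of Mb, myoglobin, at 91.9 and 92.7 with its nearest start in Apol6, and that of Igf1r at 85.5 and 91.4. The median mean rank in this list, 70.1, was the highest of the muscle lists, the others lying between 55.6 and 60.4.

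Clock genes had 49.7 shared members per Mb, against 26.1 over all genes but Gm20388, and 38.1 against 21.5 more than 5 kb from every start. The share of genes with a member was 66.7%, beside 20.0% of all genes, at a median eligible length of 7.46 kb against 4.41 kb. Rora alone held 537 kb of the 0.725 Mb of eligible sequence. Of 15 clock genes with eligible sequence, 10 had 36 members, 23 of them in Rora. Among the others, Per1, Per2, Npas2 and Nfil3 had 2 each, and Cry1, Cry2, Nr1d1 and Csnk1e 1 each. Apart from Per1, Nr1d1 and Rora, the strongest member of these named genes had a mean rank between 28.3 and 77.2. All 21 genes of the list had a promoter peak in both libraries.

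Lists of other cell types in the tissue had members too. Fibroblast and matrix genes had 87.5 per Mb, the highest of the 14 lists, with 72 members in 31 of 52 genes, and 61.1 per Mb beyond 5 kb. With the peaks of replicate 1 alone, sarcomere genes were higher, at 105.7 against 94.8. Smad3, an effector of TGF-beta, had 7, Prrx2 6, and Gli2 and Timp2 5 each. The strongest members of Meox1, Mmp2 and Gli2 had mean ranks of 92.3, 88.6 and 88.0. Endothelial genes had 27.8 per Mb, with 9 of 23 members in Mecom. Pericyte and smooth muscle genes had 62.9, Schwann cell genes 29.6, and macrophage and lymphocyte genes 37.8, from 13, 5 and 11 members. Tendon genes had 1 member, in Egr1.

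Neuron genes had 7.36 members per Mb, the lowest of the lists: 55 members over 7.48 Mb, of which 15 lay in Ntm. The strongest lay in Dlg4, a scaffold of synapses, at ranks 98.1 and 98.5. By library the neuron genes had 11.8 and 15.3 peaks per Mb, and all genes 32.5 and 47.8. Median eligible length was 122 kb in neuron genes and 4.41 kb in all genes, so these values are not matched for length. Genes with 100 to 1000 kb of eligible sequence and an open promoter had 22.5 in replicate 1 and 32.6 in replicate 2. Genes of that length open in neither library had 15.9 and 23.2. The neuron values lay below these too, and the part of length in them was not tested. Hepatocyte genes had 2 members, both in Hnf4a, at mean ranks of 91.2 and 85.0, and no peak at the start of its longest transcript. How much of each list's value belongs to its cell type was not tested.

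**Figure D5:**
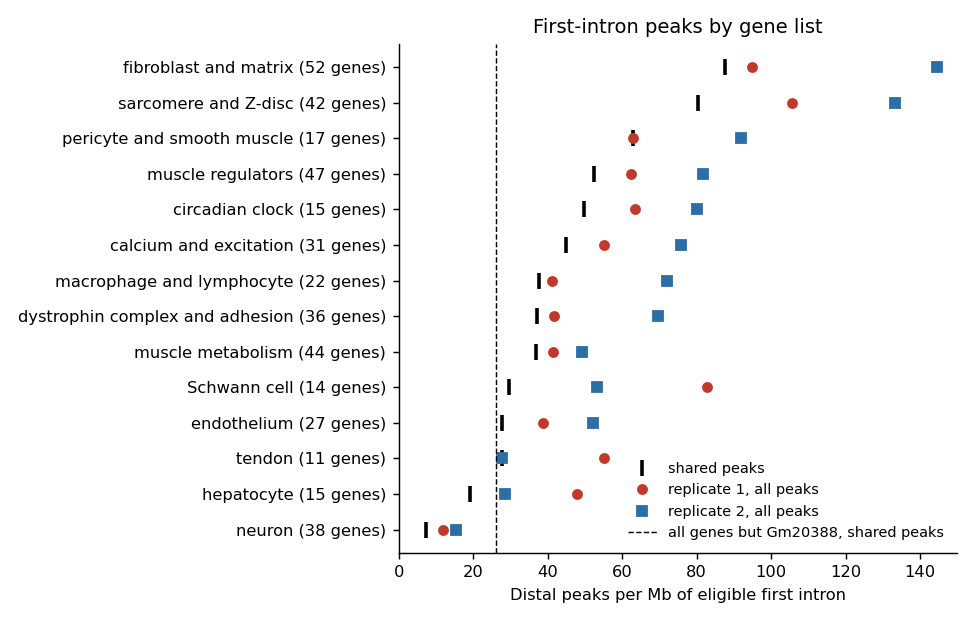
Distal peaks per Mb of eligible first intron (x axis) for 14 gene lists (y axis, with the number of genes that have eligible sequence): black bars are shared peaks, red circles all peaks of replicate 1 and blue squares all peaks of replicate 2, and the dashed line is the value of shared peaks over all genes but Gm20388, 26.1. Fibroblast and matrix genes and sarcomere genes lie farthest to the right, and neuron genes lie left of the line in both libraries.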

How the data were processed

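DNase-seq peaks, footprints and false discovery rates of 2 libraries of 1 group were used as deposited, on mm10 per the labels. Peaks carry the authors' cut density (signal), footprints the constant 0.01. For each library the authors also deposited q-values of the cut rate, up to 0.05. Neither the aligner nor the peak caller is named in the labels or files used here. Densities under 1 were whole multiples of 0.00675 in replicate 1 and 0.00333 in replicate 2 (100% within 0.1 step). These steps differ 2.03-fold, and depth in reads is unknown. Densities only describe and rank peaks within a library.

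Here, peaks were paired and placed in GENCODE M21 with Python 3.11.15 and numpy 2.4.6, and sequence was read with pysam 0.24.0 from GRCm38.p6, whose chromosome lengths no peak exceeded. Placement, pairing and motif search were tested on simulated data. Values are levels with no test: 1 group of 2 libraries has no contrast, and p-values over peaks would not speak of animals. The labels give separate tissue samples but 1 donor entry and do not say how animals were split, so the SD measures the spread between these libraries only. The motifs, the 14 gene lists (559 entries) and the members were chosen with earlier results of these data known. Named were the 10 strongest members, the 10 genes with the most members, and the 5 with the most per kb among those with at least 5. In each list the 3 genes with the strongest member and that with the most were named, and the 3 members and 3 other peaks nearest to 1 kb. Genes named besides these, such as others in a list with several members, were chosen after their values were seen. Alternatives changed the peak list, overlap, distance, transcript, placement, motif window and footprint rule, or left out a library.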

Additional observations from a re-analysis of the deposited data

How the results depend on the processing

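In all, 13 results were recomputed under 132 changes of a setting other than leaving out a library, and 96 moved by less than the SD between libraries, or for counts by less than 1.5-fold. First introns stayed above later introns in the ratios per Mb and below them in the CTCF share. The other results are single values without a direction, and their comparisons with other peaks were not recomputed. For members per Mb the SD was 10.9 beside a value of 27.0, so only a large change counted as moved. The ratio at 1 to 2.5 kb, both CTCF shares and the changes that leave out genes were chosen after seeing the data. The shorter lists gave 2979 members in 1787 genes, a median mean rank within those lists of 51.2, a footprint in both libraries for 92.5%, a median host distance of 16.04 kb and 14.1 members per Mb. With them AP-1 stood in 8.16% of members and CTCF in 11.1%, and CTCF in 20.3% of later-intron peaks. The share in the shorter lists has no value there, since it is complete by construction. Requiring an overlap of at least 50% of both peaks gave a mean rank of 60.7, 89.1% with a footprint in both, 58.8% in both shorter lists, and CTCF in 8.76% of members and 15.6% of later-intron peaks. A distance over 2.5 kb gave a mean rank of 56.4, a host distance of 24.6 kb, a ratio of first to later introns of 1.196, 50.8% in both shorter lists, CAGCTG in 34.3% and AP-1 in 8.58%. A distance over 5 kb gave 3315 members in 1565 genes, a mean rank of 55.0, a host distance of 30.6 kb, a ratio of 1.18, 50.4% in both shorter lists, CAGCTG in 34.7% and AP-1 in 8.78%. Neither distance allows a ratio at 1 to 2.5 kb. Requiring the whole peak inside the intron gave ratios of 1.37 overall and 1.92 at 1 to 2.5 kb, with the lengths of sequence kept. Choosing transcripts by exonic length gave a ratio of 1.37 and a host distance of 15.99 kb. Searching the whole peak gave CAGCTG in 29.9% and AP-1 in 7.30%. Without Gm20388 the host distance was 15.98 kb, and without introns that hold other coding genes 15.6 kb.

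With each library alone, the ranges were 7088 to 10341 members, 3095 to 3712 genes, a median rank of 46.2 to 47.4, a footprint in 81.3% to 85.3%, a host distance of 15.99 to 16.8 kb and 33.6 to 49.1 peaks per Mb. The ratio was 1.30 to 1.35 overall and 1.71 to 1.83 at 1 to 2.5 kb. The shorter list held 49.3% to 51.3%, CAGCTG stood in 28.0% to 30.2%, AP-1 in 7.67% to 7.87%, and CTCF in 5.29% to 6.39% of first-intron and 9.87% to 11.4% of later-intron peaks. The number of members and the peaks per Mb without replicate 1 exceeded the shared values by over 1.5-fold. No paired analysis was possible because there is 1 group. Depth in reads is unknown, so weak peaks found in 1 library only cannot be told apart from peaks below the depth of the other.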

Other observations

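Members were unevenly spread over chromosomes. Chromosome 11 had 39.1 members per Mb of eligible first intron, chromosome 8, which holds Gm20388, 35.2, and chromosome 14 the fewest, 18.9. Several AT-rich motifs were rarer in member windows than in windows 1 kb to the side, which have lower GC content: AGATAA, the GATA motif, stood in 5.07% against 10.4%, TAATTA, the HOX motif, in 1.84% against 5.25% and TAATCC, the PITX motif, in 4.30% against 7.92%. The part of GC content in this was not tested. NFI matches were few, in 12 members, but 83.3% of them lay in a footprint of both libraries, beside 30.8% of 65 EBF matches.

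The strongest members in lists of other cell types, picked by rank, stood beside weak ones: the median mean rank was 48.0 in the endothelium list. In the Schwann cell list it was 63.0 over 5 members, and the stronger of 2 members in Sox5 had 26.1. Ngfr, the low-affinity neurotrophin receptor, had a member at ranks 93.8 and 93.0, and Bach2, a repressor in lymphocytes, one at 95.6 and 97.0 with a MEF2 match in a footprint of both libraries. Cspg4, the NG2 proteoglycan of pericytes, had 5 members, the strongest at 80.1 and 83.9. Notch1 had 1 at 76.8 and 82.7, and Tek, the angiopoietin receptor, one at 72.4 and 74.6.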
